A study of Mus musculus with 6 samples.

Results

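The genes described here are those of the TGF-beta and BMP signalling pathway and its response genes, measured in 4T1 cells with and without a knockout of Carmil3. They were chosen by gene symbol, with earlier results of these data known. They are ligands, a ligand antagonist, latent binding proteins, receptors, SMADs, SMAD regulators and known response genes. Of 37 symbols, 36 matched an Ensembl mouse gene among the 23644 genes of the deposited table, and Bambi was not analysed here. 4T1 is a mouse mammary tumour cell line, and Carmil3 belongs to a family of proteins that bind actin capping protein. The control group is 3 libraries of wild-type 4T1 cells, and the other group is 3 libraries of Carmil3 knockout 4T1 cells, with no other treatment or allele named in the labels. Per the labels' protocols, knockout cells were clones, each grown from a single cell, in DMEM with serum. The labels name neither the number of clones behind the 3 knockout libraries nor separate cultures within a group. Every p-value below thus rests on the spread among libraries that may be technical repeats, and a difference between clones cannot be told apart from the knockout.

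TGF-beta family ligands are secreted dimers that bind pairs of type I and type II receptor kinases. TGF-beta itself is stored in a latent complex held in the matrix by latent TGF-beta binding proteins. TGF-beta and activin receptors phosphorylate SMAD2 and SMAD3, BMP receptors phosphorylate SMAD1 and SMAD5, and both kinds of SMAD act with SMAD4 in the nucleus. In epithelial and mammary tumour cells the pathway is known for growth arrest, matrix production and epithelial-mesenchymal transition, and the ID genes are textbook BMP targets.

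Levels are FPKM, reads per kilobase of exon scaled to the read total of the library, so they can be compared between genes as well as between libraries. The steps between the values gave read totals between 17779131 and 19046816 per library. Carmil3 itself was near the lower limit in all 6 libraries, at 0.0241 ± 0.0122 FPKM in the controls and 0.0120 ± 0.0120 FPKM in the knockouts (SD, n = 3), so its level does not check the labels. Knockout replicate 3 stood apart on the component with 11.8% of the variance, at -15.55 against 6.73 and 9.56 for the other knockout libraries. All 8 listed mammary epithelial markers fell, where 18.7% of all genes tested fell. Epcam, Krt7, Cdh1, Cldn4 and Cldn7 passed the expression filter given below only through the control libraries, so these had to differ. The summed level of the 8 went from between 1036 and 1134 to between 429 and 473 FPKM. Most of it was Krt8 (mean 470 to 217 FPKM) and Krt18 (522 to 227). Krt7 went from 27.9 to 0.149, Epcam from 19.7 to 0.0875 and Cldn4 from 20.3 to 0.0299 FPKM. The 5 endothelial markers in the table were each under 1 FPKM in every library. Of the 5 leukocyte markers 4 were under 1 FPKM in every library, and of the 4 fibroblast markers 2 were, with Pdgfra higher and Col1a1 lower in knockout cells. The part of the lower epithelial markers in the values below was not tested. In bulk RNA, fewer cells of a type and less RNA per cell cannot be told apart.

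Of the 36 genes 33 passed the expression filter of at least 1 FPKM in at least 3 libraries. In knockout cells 12 of them rose, 8 fell and 13 did not pass the test (limma on log2(FPKM + 1), Benjamini-Hochberg adjusted p under 0.05 over all genes tested). That is 60.6% called, where the share among all 11171 genes tested was 35.6%: 16.9% higher and 18.7% lower, against 36.4% and 24.2% here. Tgfb2, Inhba and Pmepa1 passed the filter only through the control libraries and Fst only through the knockout libraries, so these had to differ. Among the 29 genes with at least 1 FPKM in all 6 libraries, 11 rose (37.9%) and 5 fell (17.2%). The shares of all genes tested, 16.9% and 18.7%, were not limited to genes at that level in all 6 libraries. The median log2 change of the tested members was 0.02, beside -0.01 for all genes tested. Without knockout replicate 3 the counts were again 12 and 8, and all 20 calls were shared.

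**Figure D1:**
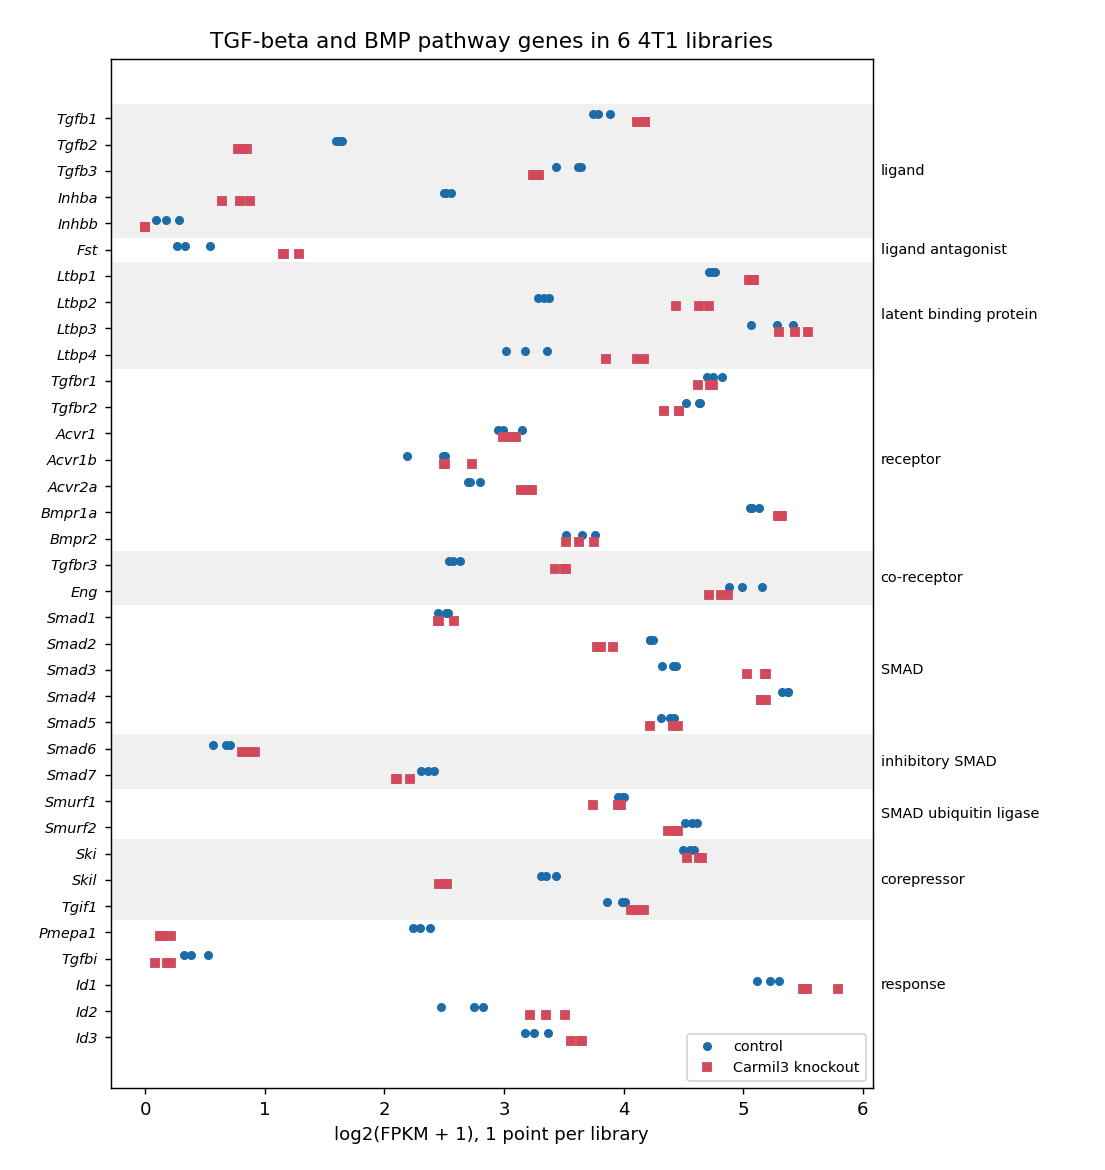
Level of each pathway gene as log2(FPKM + 1) on the x axis, 1 point per library, with 3 control libraries (circles) and 3 Carmil3 knockout libraries (squares), grouped by role. The groups stand apart most widely for Pmepa1 (3.72 to 4.21 FPKM in control, 0.0898 to 0.160 in knockout) and Inhba (4.66 to 4.88 in control, 0.561 to 0.837 in knockout), and overlap for 9 of the 36 genes. Among all 11171 genes tested the groups did not overlap for 50.5%.

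**Figure D2:**
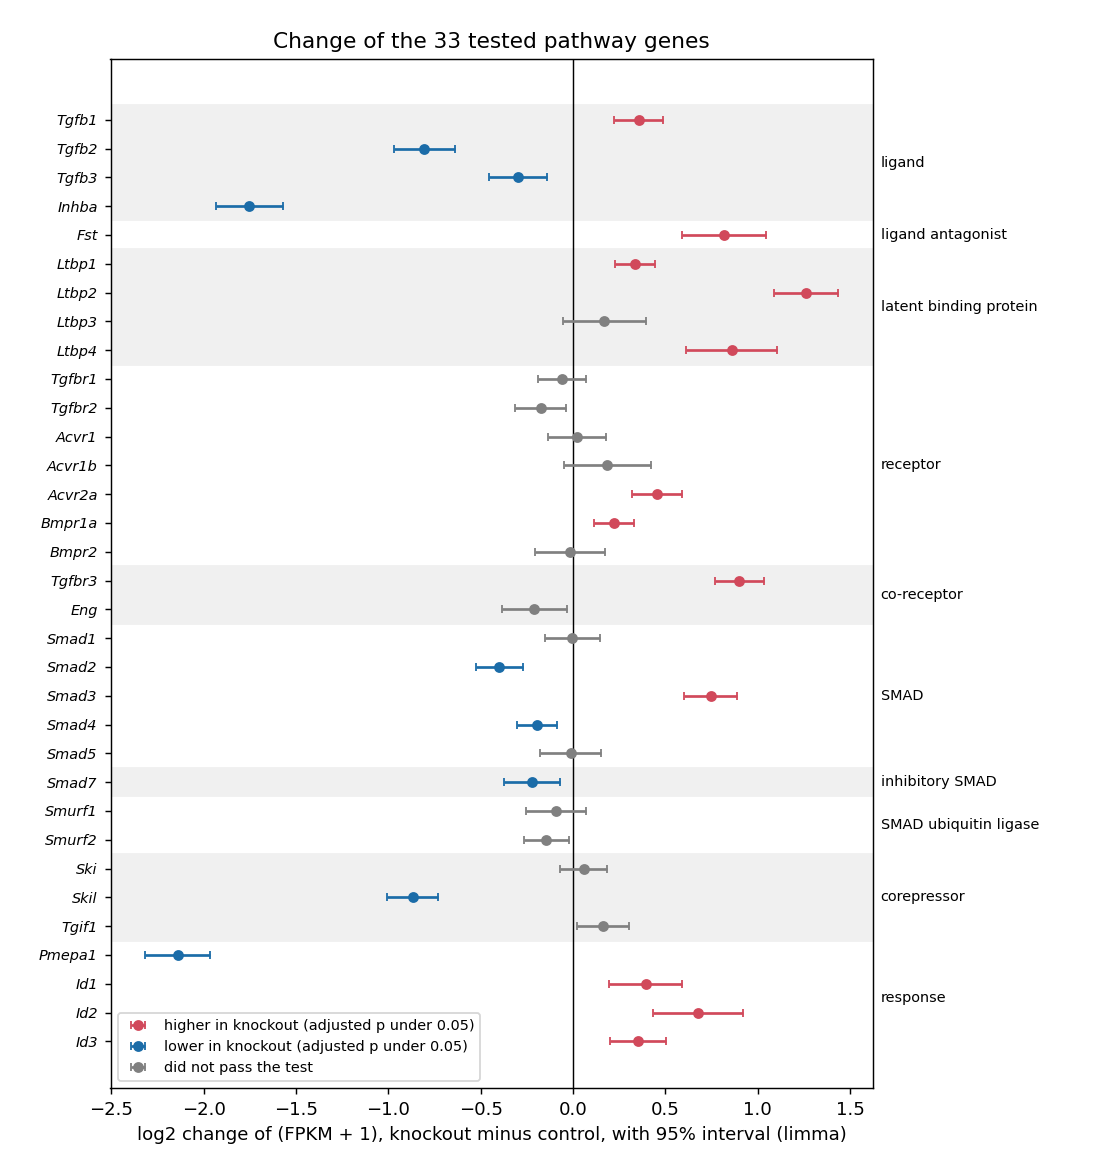
Log2 change of (FPKM + 1), knockout minus control, for the 33 tested genes with limma's 95% interval on the x axis, coloured by whether the adjusted p was under 0.05. All 3 called latent binding protein genes lie to the right of 0 and 3 of the 4 tested ligand genes to the left. Of these ligand genes Tgfb2 and Inhba passed the filter only through the control libraries. Among all genes tested 16.9% were called higher and 18.7% lower.

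The ligand genes changed in composition. Of the 3 TGF-beta ligand genes Tgfb1 rose and Tgfb2 and Tgfb3 fell, while the activin subunit gene Inhba fell to a small part of its control level. Tgfb1, the most abundant of the ligand genes, measured 12.8, 12.4 and 13.8 FPKM in control replicates 1 to 3 and 17.1, 17.2 and 16.3 FPKM in knockout replicates 1 to 3. Every knockout library was above every control library, and the change was 0.35 on the log2 scale (SE 0.058, adjusted p = 0.00200, limma). Tgfb3 measured 11.3, 9.79 and 11.5 FPKM in the controls and 8.78, 8.47 and 8.62 FPKM in the knockouts (log2 change -0.30, adjusted p = 0.0104, limma). Its groups did not overlap, control replicate 2 lay nearest to the knockouts, and without control replicate 1 the adjusted p was 0.0526. Tgfb2 measured 2.07, 2.02 and 2.12 FPKM in the controls and 0.762, 0.709 and 0.800 FPKM in the knockouts, 2.74-fold lower (adjusted p = 6.48e-05, limma). It was the scarcest of the 3 ligand genes in both groups.

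The summed FPKM of the 3 TGF-beta ligand genes was 25.9 ± 1.62 in control and 26.2 ± 0.443 in knockout cells (SD, n = 3), and these ranges overlapped. Tgfb1 made up between 48.8% and 51.2% of that sum in control libraries and between 63.4% and 65.2% in knockout libraries. The share of Tgfb2 went from between 7.75% and 8.35% to between 2.69% and 3.11%, and that of Tgfb3 from between 40.5% and 43.3% to between 32.1% and 33.5%. None of these shares overlapped between the groups, but they are parts of the same sum and so not separate results. An exact permutation test over 20 arrangements gave p = 0.1 for each share, the lowest it can give. For single genes, the groups did not overlap for 50.5% of all genes tested.

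**Figure D3:**
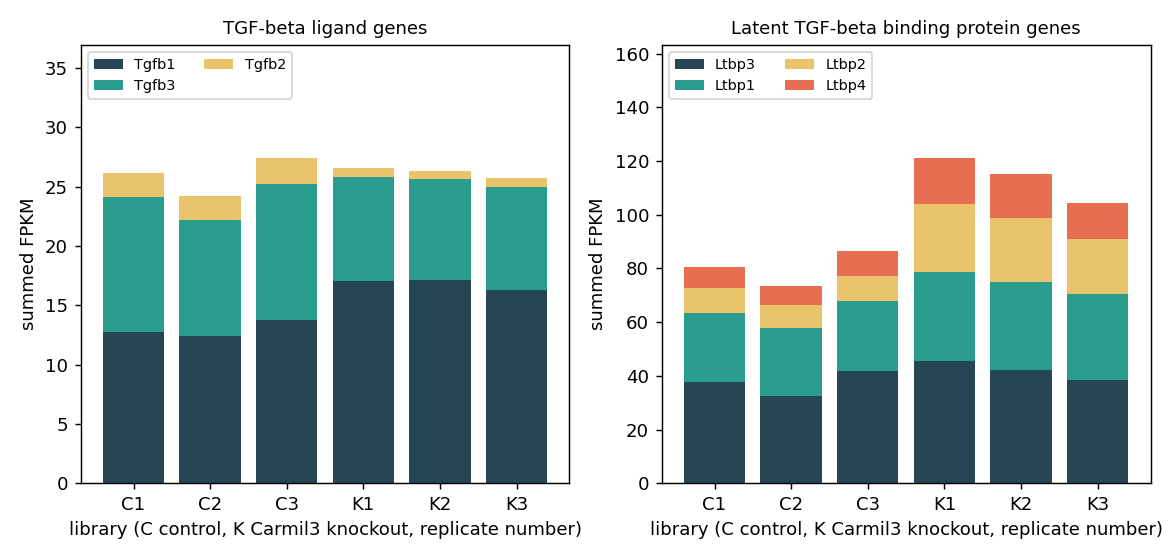
Summed FPKM per library of the 3 TGF-beta ligand genes (left) and of the 4 latent TGF-beta binding protein genes (right), stacked by gene, for control (C) and Carmil3 knockout (K) replicates 1 to 3. The ligand sum lies between 24.2 and 27.4 in all libraries, and the binding protein sum between 73.5 and 86.5 in control and between 104.5 and 121.0 in knockout libraries.

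Inhba (ENSMUSG00000041324, chromosome 13, 16011851 to 16031621, GRCm38) encodes the beta-A subunit of activin and inhibin. It measured 4.66, 4.88 and 4.72 FPKM in the controls and 0.731, 0.837 and 0.561 FPKM in the knockouts. All 3 knockout libraries were far below the controls, 6.69-fold lower by the means, and log2(FPKM + 1) changed by -1.75 (SE 0.080, adjusted p = 1.45e-06, limma). Scaled by reads instead, without the pseudocount of 1, the log2 change was -2.75. Inhbb, the beta-B subunit gene, was below the filter at 0.220, 0.0661 and 0.126 FPKM in control libraries and at 0 in all 3 knockout libraries. This corresponds to 32 reads over the control libraries and 0 over the knockout libraries, at least 10.8-fold lower against a floor of 3 reads over the group, counting error only. In the fit without the filter Inhbb did not pass (adjusted p = 0.0660, limma). That fit called 14.4% of all 23644 genes, 6.50% higher and 7.88% lower.

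Fst, which encodes follistatin, a secreted protein that binds and blocks activins, went the other way from Inhba. It measured 0.259, 0.457 and 0.206 FPKM in the controls and 1.24, 1.23 and 1.44 FPKM in the knockouts, 4.23-fold higher (adjusted p = 0.000402, limma). The ratio of Fst to Inhba FPKM was between 0.0436 and 0.0938 in control libraries and between 1.46 and 2.57 in knockout libraries. Inhba was above Fst per length in every control library and below it in every knockout library. Inhba passed the filter only through the control libraries and Fst only through the knockout libraries. This crossing and the direction of the ratio were thus fixed in advance.

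Of the 4 latent TGF-beta binding protein genes, all tested, 3 rose (Ltbp1, Ltbp2, Ltbp4), none fell and Ltbp3 did not pass. Among all genes tested 16.9% were called higher and 18.7% lower. Their median log2 change was 0.60. Ltbp2 (chromosome 12, 84783212 to 84876532, GRCm38) encodes a family member that binds matrix microfibrils but, unlike the others, not latent TGF-beta. It measured 9.09, 8.77 and 9.39 FPKM in the controls and 25.3, 23.8 and 20.7 FPKM in the knockouts, a rise of 2.56-fold (log2 change 1.26, SE 0.076, adjusted p = 6.92e-06, limma). Knockout replicate 3 was the lowest of the 3 but still above every control. An antisense gene, D030025P21Rik, overlaps 9.34% of the Ltbp2 exon length, and the strand setting of the counting was not stated. Ltbp4 measured 8.06, 7.10 and 9.27 FPKM in the controls and 17.0, 16.3 and 13.5 FPKM in the knockouts, 1.91-fold higher with adjusted p = 0.000520 by limma. Ltbp1 rose less, from 25.7 ± 0.450 to 32.7 ± 0.580 FPKM (SD, n = 3, adjusted p = 0.000932, limma). Ltbp3, at 37.8, 32.4 and 41.7 FPKM in the controls and 45.6, 42.1 and 38.3 FPKM in the knockouts, overlapped between the groups. The interval of its log2 change ran from -0.05 to 0.39.

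Ltbp2 included, the FPKM of the 4 binding protein genes summed to between 3.04 and 3.16 times that of the 3 TGF-beta ligand genes in control libraries and to between 4.06 and 4.55 times in knockout libraries. Ltbp2 contributed between 10.9% and 11.9% of the binding protein sum in control and between 19.8% and 20.9% in knockout libraries.

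Of the 9 receptor and co-receptor genes 3 rose (Tgfbr3, Acvr2a, Bmpr1a), none fell and 6 missed the threshold, 33.3% called beside 35.6% of all genes tested. Their median log2 change was 0.02. The type I receptor gene Tgfbr1 measured 26.0 ± 1.16 FPKM in the controls and 24.9 ± 1.12 FPKM in the knockouts (SD, n = 3), with an interval of the log2 change from -0.19 to 0.07. The type II receptor gene Tgfbr2 measured 23.7, 22.0 and 23.9 FPKM in the controls and 21.05, 21.1 and 19.2 FPKM in the knockouts. Those groups did not overlap, but the change of -0.18 had an adjusted p of 0.0520 by limma. It passed in 4 of 17 alternative settings, for example with adjusted p = 0.0349 by limma-voom on recovered reads, over a range of 0.0349 to 1.

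Tgfbr3 (chromosome 5, 107106570 to 107289629, GRCm38) encodes betaglycan, a co-receptor that presents TGF-beta2 and inhibin. It measured 4.96, 4.83 and 5.19 FPKM in the controls and 10.4, 9.73 and 10.4 FPKM in the knockouts. The groups were narrow and far apart, with a 2.04-fold rise and adjusted p = 1.05e-05 by limma. Eng, which encodes endoglin, a co-receptor best known in endothelium, measured 30.7, 28.5 and 34.6 FPKM in the controls and 28.2, 27.2 and 25.2 FPKM in the knockouts (adjusted p = 0.0642, limma). Its knockout values lay below every control, though the difference did not pass the test. The 5 endothelial markers in the table summed to at most 0.0682 FPKM in any library. The ratio of Tgfbr3 to Tgfbr2 FPKM was between 0.209 and 0.220 in control and between 0.461 and 0.541 in knockout libraries.

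Of the activin and BMP receptor genes, Acvr2a and Bmpr1a rose. Acvr2a, an activin type II receptor gene, measured 5.58, 5.96 and 5.51 FPKM in the controls and 7.85, 8.42 and 8.16 FPKM in the knockouts (1.43-fold, adjusted p = 0.000621, limma). Part of its exons, 7.84% of their length, overlaps Orc4 on the opposite strand. Bmpr1a, a BMP type I receptor gene and the most abundant receptor here, measured 32.6, 34.0 and 32.3 FPKM in the controls and 39.0, 38.1 and 38.5 FPKM in the knockouts. This was a rise of 1.17-fold (adjusted p = 0.00802, limma), and without control replicate 1 the adjusted p was 0.0510. Acvr1 (7.18 ± 0.602 and 7.29 ± 0.297 FPKM in the controls and knockout cells), Acvr1b (4.28 ± 0.627 and 4.99 ± 0.554) and Bmpr2 (11.5 ± 1.06 and 11.4 ± 1.001) overlapped between the groups (SD, n = 3). The interval of the log2 change was -0.14 to 0.18 for Acvr1, -0.05 to 0.42 for Acvr1b and -0.20 to 0.17 for Bmpr2.

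The SMAD genes of the TGF-beta branch moved in opposite directions, and those of the BMP branch did not pass, though Smad1 did once centred on its chromosomal neighbours. Smad3 measured 20.7, 18.9 and 20.3 FPKM in the controls and 35.6, 35.3 and 31.8 FPKM in the knockouts. Each knockout library was far above each control, a rise of 1.71-fold (log2 change 0.75, SE 0.063, adjusted p = 4.55e-05, limma). Smad2, its close relative, measured 17.7, 18.0 and 17.7 FPKM in the controls and 14.0, 13.0 and 12.7 FPKM in the knockouts, 1.34-fold lower with adjusted p = 0.000872 by limma. The ratio of Smad3 to Smad2 FPKM went from between 1.05 and 1.17 in control to between 2.50 and 2.71 in knockout libraries. The shared partner gene Smad4, the most abundant of all 36 genes in control cells, measured 39.0, 40.5 and 40.6 FPKM in the controls and 35.5, 34.5 and 34.5 FPKM in the knockouts. That fall was 1.15-fold (adjusted p = 0.0141, limma), and without knockout replicate 2 the adjusted p was 0.0560. Smad1 (4.66 ± 0.164 and 4.64 ± 0.309 FPKM) and Smad5 (19.7 ± 0.804 and 19.6 ± 1.77 FPKM), the BMP-branch genes, had intervals of -0.15 to 0.15 and -0.18 to 0.15 for the log2 change.

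None of the 4 negative regulator genes given here passed the test, where 35.6% of all genes tested were called. Smurf1 and Smurf2 encode ubiquitin ligases that mark SMADs and receptors for degradation, and Ski and Tgif1 encode SMAD corepressors. Smurf1 measured 14.8 ± 0.283 FPKM in the controls and 13.9 ± 1.32 FPKM in the knockouts, and Smurf2 22.7 ± 0.858 and 20.5 ± 0.691 FPKM (SD, n = 3). Ski measured 22.4 ± 0.737 and 23.3 ± 1.09 FPKM, and Tgif1 14.5 ± 0.839 and 16.3 ± 0.661 FPKM. The intervals of the log2 change were -0.26 to 0.07 for Smurf1, -0.27 to -0.02 for Smurf2, -0.07 to 0.19 for Ski and 0.02 to 0.30 for Tgif1. Every knockout library was below every control for Smurf2 and above for Tgif1, and adjusted p was 0.0680 and 0.0707 (limma). Skil, Smad7 and Smad6 are both inhibitors of the pathway and known targets of it, and are given with the response genes. Of these Skil and Smad7 were called lower, Smad7 not in every setting, and Smad6 was below the filter.

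Of the response genes chosen by symbol, the 4 listed for TGF-beta (Pmepa1, Skil, Smad7, Tgfbi) were lower in every knockout library than in every control library, and the 4 listed for BMP (Id1, Id2, Id3, Smad6) were higher. The wider lists were mixed. Of 20 other listed TGF-beta response genes, 12 were below without overlap, 2 were above and 6 overlapped, and of 8 other BMP response genes 3 were above and 5 overlapped. Among all genes tested the groups did not overlap for 50.5%, with the knockout values below for 26.4% and above for 24.2%. That share leaves out genes below the filter, but the list counts include them, since only 16 of the 20 and 2 of the 8 were tested. Tagln (1 read in each control library) and Nox4 (2, 13 and 7 reads) were thus counted as below, and Id4 and Rasl11b as above. Of the 4 genes listed for TGF-beta 3 were tested and all 3 fell, with a median log2 change of -0.87. Pmepa1, among these 3, passed the filter only through the control libraries, so it had to differ. Of the 4 genes listed for BMP 3 were tested and all 3 rose, with a median of 0.39. Among all genes tested 18.7% were called lower and 16.9% higher. Tgfbi and Smad6 were below the filter. The genes and lists were chosen with earlier results of these data known, so these counts describe the lists and do not test the branches. No test of the difference between the branches was made, and the Smad7 call was lost after centring on chromosomal neighbours (adjusted p = 0.668, limma).

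**Figure D4:**
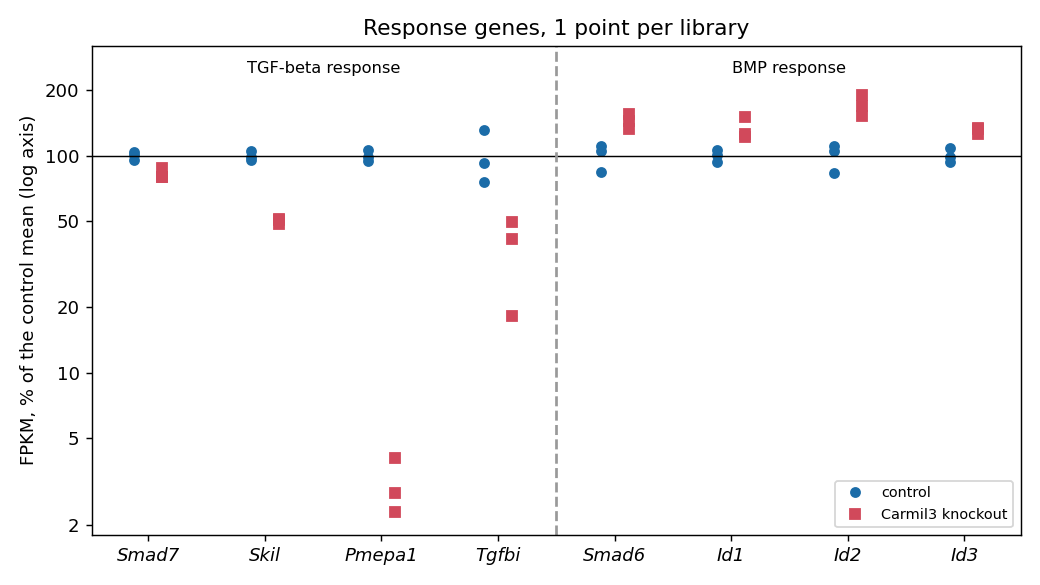
FPKM of 8 response genes as a percentage of the gene's control mean, on a log axis, 1 point per library, for control (circles) and Carmil3 knockout (squares). The knockout points of Pmepa1, Skil, Smad7 and Tgfbi lie below the control points and those of Id1, Id2, Id3 and Smad6 lie above.

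Pmepa1 (ENSMUSG00000038400, chromosome 2, 173224458 to 173276533 on the minus strand, GRCm38) encodes a membrane protein that is induced by TGF-beta and limits SMAD activation. It measured 3.72, 3.90 and 4.21 FPKM in the controls and 0.160, 0.110 and 0.0898 FPKM in the knockouts. The 332, 341 and 387 reads of the control libraries stood against 15, 10 and 8 reads in the knockout libraries, and the mean FPKM was 32.9-fold lower. It was the largest change among the 33 tested members, with a log2 change of (FPKM + 1) of -2.14 (SE 0.077, adjusted p = 3.77e-07, limma). Without the pseudocount of 1, on recovered reads, the log2 change was -5.01. Skil (chromosome 3, 31095058 to 31122577, GRCm38) encodes SnoN, a corepressor that binds SMADs and is itself a TGF-beta target. It measured 8.91, 9.82 and 9.18 FPKM in the controls and 4.74, 4.68 and 4.49 FPKM in the knockouts, 2.01-fold lower (adjusted p = 1.49e-05, limma).

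Smad7, the inhibitory SMAD gene of the TGF-beta branch, measured 4.16, 3.94 and 4.32 FPKM in the controls and 3.31, 3.29 and 3.63 FPKM in the knockouts. Its groups lay close together, and the fall of 0.22 on the log2 scale (adjusted p = 0.0305, limma) passed in only 8 of 16 alternative settings, over a range of adjusted p from 0.0167 to 1. Without control replicate 1 or 3, or knockout replicate 1 or 2, the adjusted p was 0.0912 or more. Tgfbi, a secreted matrix protein gene named for its induction by TGF-beta, was low throughout, at 0.308, 0.252 and 0.439 FPKM in the controls and 0.137, 0.0605 and 0.165 FPKM in the knockouts. In the fit without the filter it did not pass (adjusted p = 0.0894, limma).

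The ID genes encode helix-loop-helix proteins that block the DNA binding of their partners. Id1 measured 33.8, 38.4 and 36.5 FPKM in the controls and 45.4, 44.2 and 54.5 FPKM in the knockouts, 1.33-fold higher (adjusted p = 0.00834, limma). Id2 measured 6.07, 4.54 and 5.74 FPKM in the controls and 9.22, 8.31 and 10.4 FPKM in the knockouts, 1.71-fold higher (adjusted p = 0.00162, limma). Id3 measured 8.54, 8.04 and 9.34 FPKM in the controls and 10.8, 11.5 and 11.6 FPKM in the knockouts, 1.31-fold higher (adjusted p = 0.00400, limma). For all 3 genes the knockout library with the highest value was replicate 3, and without it their calls held. Smad6, the inhibitory SMAD gene of the BMP branch, measured 0.480, 0.632 and 0.6001 FPKM in the controls and 0.885, 0.826 and 0.757 FPKM in the knockouts. Its 100 reads over the control libraries and 147 over the knockout libraries did not overlap as FPKM, but the fit without the filter gave adjusted p = 0.121 (limma).

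The start-site windows of these genes were searched for a pair of SMAD-binding palindromes, each of which reads the same on both strands. GTCTAGAC is the full SMAD3 and SMAD4 site, and GGCGCC is a GC-rich site linked to SMAD1 and SMAD5. The windows hold 250 bases before and 50 after each annotated start (RefSeq, GRCm38.p6). The windows of 27 of the genes were searched, Pmepa1, Skil and Id1 not among them. Smad2, Smad4 and Smad7 were left out of the search, so whether their windows hold either site was not tested. GTCTAGAC was found for 1 of these 27 genes, Smad6, beside 0.248% of all 27025 genes with a window. GGCGCC was found for 10 of the 27, beside 13.4% of all. These were Bmpr2, Tgfbr1, Ski, Ltbp4, Smurf2, Id2, Tgfbi, Smad5, Bmpr1a and Acvr1b. Ltbp4, Id2 and Bmpr1a of these rose, Tgfbi was below the filter and the others did not pass. Of the tested pathway genes 36.4% were called higher, and of all genes tested 16.9%. The Bmpr1a call was lost after centring on chromosomal neighbours (adjusted p = 0.866, limma). The response genes with a match are shown with 100 bases that hold it, in lower case with the match in capitals, because their library values are given above. The Smad6 match spans its start site, from position -4 to 4, the Id2 match begins at position -231 and the Tgfbi match at position -77. A match is a description of the letters, and no binding was measured.
Smad6 (chr9:64022056-64022155, minus strand): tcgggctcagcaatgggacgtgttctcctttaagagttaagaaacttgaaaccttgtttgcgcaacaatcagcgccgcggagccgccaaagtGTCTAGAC
Id2 (chr12:25096243-25096342, minus strand): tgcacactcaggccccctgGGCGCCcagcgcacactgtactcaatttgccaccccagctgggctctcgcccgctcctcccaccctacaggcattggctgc
Tgfbi (chr13:56609459-56609558, plus strand): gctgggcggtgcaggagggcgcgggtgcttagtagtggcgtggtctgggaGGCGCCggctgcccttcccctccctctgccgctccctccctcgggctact

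The changes were also set against those of chromosomal neighbours, because on some chromosomes changes leaned one way. Smad2, Smad4 and Smad7 all lie on chromosome 18, where 42.2% of the 287 tested genes fell and 5.23% rose. Over the neighbours, 20 tested genes a side, the median log2 change was -0.18 near Smad2 and Smad7 and -0.22 near Smad4. After centring on these neighbours Smad2 still fell (log2 change -0.22, adjusted p = 0.0192, limma), while Smad7 (-0.04, adjusted p = 0.668) and Smad4 (0.02, adjusted p = 0.754) did not pass. Tgfb1, Tgfb3 and Bmpr1a also did not pass after centring, with adjusted p of 0.182, 0.513 and 0.866 by limma, their neighbours having medians of 0.24, -0.23 and 0.21. Smad1, whose neighbours had a median of -0.29, rose after centring (log2 change 0.29, adjusted p = 0.0115, limma), and Tgfbr1 fell (-0.18, adjusted p = 0.0493). The calls of Tgfb2, Inhba, Fst, Ltbp1, Ltbp2, Ltbp4, Tgfbr3, Acvr2a, Smad2, Smad3, Skil, Pmepa1, Id1, Id2 and Id3 held, 15 of the 20. After centring 26.7% of all genes were called, 13.1% higher and 13.6% lower.

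**Figure D5:**
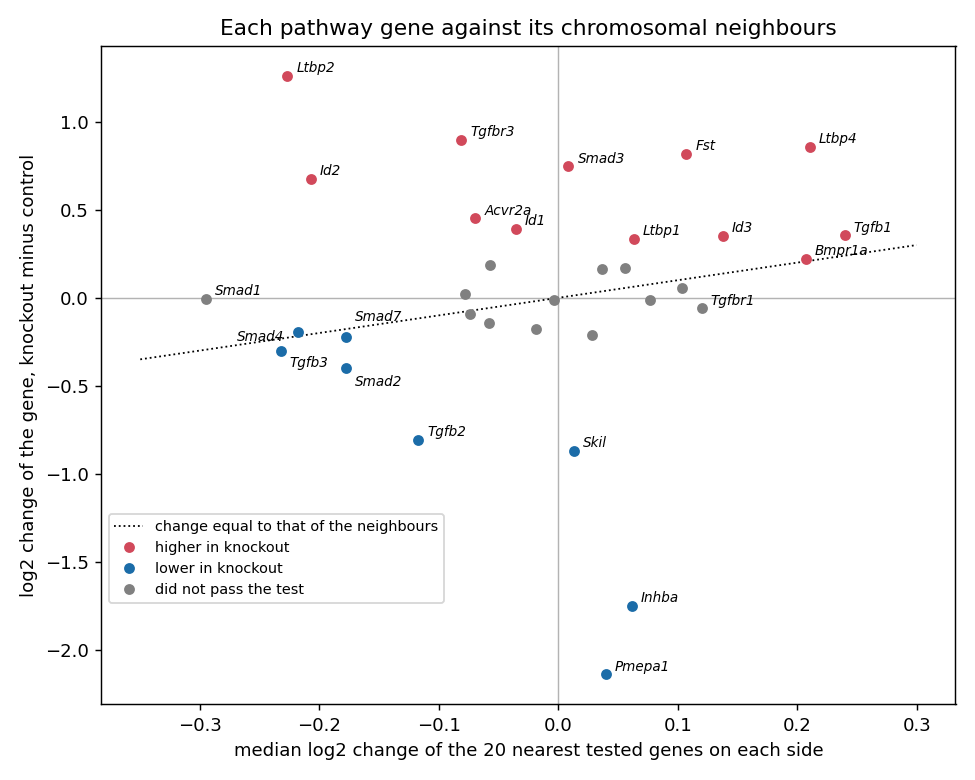
Log2 change of each tested pathway gene (y axis) against the median of its neighbours, 20 tested genes to either side (x axis), with a line where the 2 are equal. Smad4, Smad7, Tgfb3 and Bmpr1a lie near the line, and Pmepa1, Inhba, Ltbp2, Skil and Tgfbr3 lie far from it.

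Other genes of the pathway were taken from lists of 116 symbols, of which 98 were in the table and 54 passed the filter. The lists were also chosen with earlier results of these data known. Of these 8 rose, 17 fell and 29 did not pass, with a median log2 change of -0.10. The called share was 46.3%, beside 35.6% of all genes tested. Among the other ligand genes, Bmp7, which encodes a BMP, measured 5.32, 5.51 and 5.80 FPKM in the controls and 0.614, 0.336 and 0.384 FPKM in the knockouts (adjusted p = 7.76e-07, limma). Every knockout library was far below every control. Bmp7 and Col1a1 passed the filter only through the control libraries, so these 2 of the 17 had to differ. Gdf11, a ligand gene of the activin branch, rose by 0.26 on the log2 scale (adjusted p = 0.00812, limma). The remaining 10 ligand genes in the table were below the filter. Of the 3 tested antagonist genes (Nbl1, Twsg1, Fstl3) none passed.

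Of 5 tested genes that activate or carry latent TGF-beta, 3 fell and none rose, where 18.7% of all genes tested fell and 16.9% rose. Thbs1 encodes thrombospondin-1, a matrix protein that can activate latent TGF-beta, and measured 65.3 ± 0.624 FPKM in the controls and 22.1 ± 0.748 FPKM in the knockouts (SD, n = 3, adjusted p = 1.75e-07, limma). Itgb5, an integrin subunit gene, fell from 15.6 ± 1.355 to 5.08 ± 0.156 FPKM (SD, n = 3, adjusted p = 2.06e-06, limma), and Bmp1, a procollagen protease gene that is no BMP ligand, fell from 75.3 ± 4.84 to 59.2 ± 1.802 FPKM. The Bmp1 call was lost after centring on neighbours (adjusted p = 0.200, limma). Of 5 other receptor and co-receptor genes Rgma and Rgmb, which encode BMP co-receptors, rose by 0.71 and 0.34 on the log2 scale, and none fell. Rgma measured 2.01, 1.78 and 1.99 FPKM in the controls and 4.24, 3.64 and 3.55 FPKM in the knockouts.

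Of 21 tested SMAD regulators 2 rose and 5 fell, 33.3% called beside 35.6% of all genes tested, the ubiquitin ligase gene Nedd4l with the largest fall (log2 change -0.51, adjusted p = 0.00404, limma). Ldlrad4, an inhibitor of SMAD activation, and the ubiquitin ligase gene Wwp2 had changes of -0.34 and -0.26, and both calls were lost after centring (adjusted p = 0.270 and 0.972, limma). The Ldlrad4 call was also lost without control replicate 3 (adjusted p = 0.0551, limma). Stub1 and Ctdsp2 had rises of 0.40 and 0.26. The Stub1 call was lost in several settings, among them without control replicate 1 (adjusted p = 0.0744, limma), and the Ctdsp2 call without control replicate 1 or knockout replicate 1 (0.0692 and 0.0545).

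Of 16 other TGF-beta response genes tested, 8 fell and 2 rose, 62.5% called beside 35.6% of all genes tested. These were 50% lower and 12.5% higher, beside 18.7% and 16.9% of all genes tested. Col1a1, among the 8, passed the filter only through the control libraries. Ccn2, a matricellular growth factor gene, and Col7a1, the anchoring fibril collagen gene, fell by 2.08 and 1.23 on the log2 scale. Ccn2 measured 10.2, 9.73 and 9.52 FPKM in the controls and 1.63, 1.47 and 1.58 FPKM in the knockouts (adjusted p = 1.06e-07, limma). Klf10, a zinc finger gene first described as an early TGF-beta response gene, went the other way, from 11.4, 12.2 and 13.0 to 17.8, 17.3 and 18.1 FPKM (adjusted p = 0.000332, limma). Hmga2, a chromatin protein gene, rose by 0.25 on the log2 scale. Of the 2 other BMP response genes tested, Gata3, a transcription factor gene, rose from 23.0 ± 0.928 to 28.6 ± 1.57 FPKM (SD, n = 3, adjusted p = 0.00471, limma) and Runx2 did not pass. Id4, below the filter, was listed at 0.0663, 0.271 and 0.0965 FPKM in the controls and 0.569, 0.488 and 0.399 FPKM in the knockouts, and is named here after its values were seen.

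Among the pathway genes the spread within a group was small. The median coefficient of variation of the 33 tested genes over 3 libraries was 4.58% in control and 5.69% in knockout cells, beside 5.77% and 6.98% for all genes tested. Knockout replicate 3 held the lowest knockout value for 19 of the 33 genes and the highest for 7. Control replicate 2 held the lowest control value for 17. Tested against a change of 1.5-fold, Inhba, Skil and Pmepa1 were lower and Ltbp2 and Tgfbr3 higher, 5 genes in all. Of all genes tested 2.78% passed, 1.06% higher and 1.73% lower. Inhba and Pmepa1 had passed the filter only through the control libraries, so the direction of their change was fixed.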

How the data were processed

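The authors deposited 1 table of FPKM values for 23644 genes and 6 libraries. The build was mm10 and the tools named were HTSeq 0.6.0, TopHat, TopHat2 2.0.12, Bowtie2, Bowtie and CASAVA, per the submitters' processing notes. What each did, the annotation release and the strand setting were not stated. Symbols, positions and exon lengths came from GENCODE M21 (GRCm38, the same assembly), which matched 23587 identifiers. FPKM times exon length was a whole multiple of 1 step per library within 0.02 of a read for 91.9% to 92.2% of values up to 500 reads, which gave the read totals. They are relative, since the listed genes sum to 108.7% to 109.1% of them. Reads of the pathway genes came out whole in all 6 libraries for 30 of 36.

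The test was limma 3.58.1 (R 4.3.3), two-sided, on log2(FPKM + 1), with trend and robust set in eBayes. It covered genes that reached 1 FPKM in 3 or more libraries, with Benjamini-Hochberg adjustment over all of them and a threshold of 0.05. A log2 change on this scale understates the change of low genes. Python 3.11.15 was used for the rest. The fit was tested on simulated data. Alternatives were pseudocounts, filters, rescaling, eBayes without trend and robust, a replicate block, each library left out (same genes tested), a test against 1.5-fold, centring on the 20 nearest tested genes on each side, and limma-voom on recovered reads. Members and lists were chosen with earlier results of these data known. All called members are named, and of the other pathway genes up to 3 called per direction and list with a mean of at least 2 FPKM. A gene that this rule names is not reported here. Ligand proteins were not compared here.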

Additional observations from a re-analysis of the deposited data

How the results depend on the processing

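Of the 33 tested genes, Inhba, Ltbp2, Pmepa1, Skil and Tgfbr3 were called in the same direction in every setting run except the filter of 5 FPKM, which Inhba and Pmepa1 do not pass. Inhba and Pmepa1 also passed the main filter only through the control libraries. Against a 1.5-fold change 118 genes of all tested were higher and 193 lower, 2 and 3 of the pathway genes, and 0 and 7 of the other pathway genes; for the 0, limma at an unadjusted p under 0.05 also gave 0, and the other settings gave 6 to 10. With the filter of 5 FPKM 5 pathway genes were lower, since Inhba, Pmepa1, Tgfb2 and Smad7 were no longer called and Tgfbr2 was. With 1 library left out, between 1182 and 2041 genes of all tested were higher and between 1358 and 2218 lower. For the pathway genes these counts were 11 to 12 and 6 to 10, and for the other pathway genes 6 to 10 and 15 to 17. The lowest counts over all genes, 1182 and 1358, came without control replicate 1, where Bmpr1a, Smad7 and Tgfb3 were not called.

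The replicate numbers share only a number: same-numbered libraries had correlations of their deviations of -0.06, 0.15 and 0.10. With the replicate block 1900 genes were higher and 2127 lower, 12 and 8 of the pathway genes and 9 and 17 of the other pathway genes, and the 20 pathway calls were shared.

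Changes of sign were found only for genes that did not pass and for Smad4, and their cause was not tested. Leaving out 1 library gave log2 changes from -0.0180 to 0.0807 for Acvr1, -0.0784 to 0.0443 for Bmpr2, -0.0497 to 0.0195 for Smad1 and -0.0594 to 0.0596 for Smad5. Bmpr2 (0.0046) and Smad1 (0.0316) changed sign with quantile normalization and Smad1 (0.0015) with median-of-ratios rescaling. After centring on neighbours Smad1 (0.29), Smad4 (0.0239) and Ski (-0.0459) did. Few reads limit Inhbb (32 over the control libraries), Smad6 (100) and the knockout level of Pmepa1 (8 to 15 a library).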

Other observations

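Pmepa1 and Bmp7, the pathway genes with the deepest falls on this scale, lie close together on chromosome 2 (GRCm38), Bmp7 at 172868012 to 172940321 and Pmepa1 at 173224458 to 173276533, with 284136 bases between them. This was noticed after the values were seen. Of the 8 genes listed from Bmp7 to Pmepa1 4 were tested. Of these 3 fell, Bmp7 and Pmepa1 among them, and 1 did not pass, where 18.7% of all genes tested fell. Spo11, a meiotic recombination gene next to Bmp7 and below the filter, was listed at 0.449, 0.502 and 0.395 FPKM in the controls and 0.0134, 0 and 0.0562 FPKM in the knockouts. Between these genes, Rae1, an mRNA export gene, measured 33.6 ± 1.02 FPKM in the controls and 29.2 ± 0.316 FPKM in the knockouts (SD, n = 3, adjusted p = 0.0152, limma). Rbm38, an RNA-binding protein gene, measured 5.07 ± 0.796 and 4.88 ± 0.438 FPKM (adjusted p = 0.788, limma). Rae1 and Rbm38, which lie between Spo11 and Pmepa1, had changes of -0.20 and -0.04 on the log2 scale beside -2.18 for Bmp7 and -2.14 for Pmepa1. Of the nearest tested genes listed outside the stretch, Tfap2c, on the Bmp7 side, fell (-0.70, adjusted p = 0.00105, limma). Ppp4r1l-ps, on the Pmepa1 side, did not pass (0.05, adjusted p = 0.666, limma). A change of the region as a whole was not tested.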
